A study of Mus musculus with 32 samples.

Results

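The genes described here were low in undifferentiated UB/OC-1 cells, high in the days 3 to 5 cultures, and lower again by days 9 to 14. They were chosen by their measured values. Intensities below a floor (141 on array design a, 198 on design b) were raised to it and put on the log2 scale. A probe set, the group of oligonucleotides on the array that measures one transcript, was kept if it had 1 gene symbol and its mean over days 3, 4 and 5 of experiment A and day 4 of experiment B was at least 0.8 above the mean of both day 0 arrays and at least 0.8 above the mean of days 9, 11 and 14 of A and day 9 of B. This held for 46 of 7542 probe sets with 1 gene symbol, or 0.61%. They report 44 genes, 35 of the probe sets lying on design a and 11 on design b. Rise and fall name these 2 differences throughout; since they chose the members, they are given as a description with no test.

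UB/OC-1 is a mouse line established from the embryonic organ of Corti, where the hair cells of the cochlea form. It is conditionally immortal: it carries a temperature-sensitive SV40 large T antigen, a viral protein that binds p53 and the retinoblastoma protein and loses its function at the higher temperature. All 16 cultures share this transgene and are of 1 line. Total RNA was measured at 33 °C on day 0 and at 39 °C on every later day, in experiment A on days 0 to 9, 11 and 14 and in experiment B on days 0, 2, 4 and 9. Any difference from day 0 thus mixes time with the change of temperature, and the 2 cannot be told apart. For the tests, cultures were grouped as day 0 (n = 2), days 1 to 2 (n = 3), days 3 to 5 (n = 4), days 6 to 8 (n = 3) and days 9 to 14 (n = 4), each culture on 1 array of each design. A day was measured once per experiment, so the spread within a group includes change from day to day and differences between experiments. The labels do not say how the cultures were kept apart, and a p-value here speaks only for the scatter among these arrays.

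Of these genes, Mdm2, Cdkn1a and Ccng1 belong to the p53 circuit, whose part in their course was not tested. The transcription factor p53 induces Mdm2, a ubiquitin ligase that binds p53 and sends it to the proteasome, as well as Cdkn1a, the p21 inhibitor of cyclin-dependent kinases, and Ccng1, cyclin G1, which recruits a phosphatase to Mdm2. Others build or hold the basement membrane, the sheet on which epithelial cells rest: laminin chains such as Lamc1 form its network, and the integrin pair of Itga6 and Itgb4 anchors epithelial cells to it in hemidesmosomes. In the cochlea the sensory epithelium lies on such a membrane.

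Promoters of the 3 genes of the p53 circuit are shown because these genes form the best known circuit among the members, and that of Col8a1 because it had the largest smaller side of its rise and fall on the arrays. The windows run from 250 bases before to 50 after a RefSeq transcript start in the mouse assembly GRCm38.p6, 5′ to 3′ on the gene's own strand, and both of the Cdkn1a starts in that table are given. Capitals mark matches, on either strand, to GGGCGG (the GC box), to CCAAT, the CCAAT box, and to the p53 half-site consensus.
Mdm2, chr10:117710709-117711008, minus strand: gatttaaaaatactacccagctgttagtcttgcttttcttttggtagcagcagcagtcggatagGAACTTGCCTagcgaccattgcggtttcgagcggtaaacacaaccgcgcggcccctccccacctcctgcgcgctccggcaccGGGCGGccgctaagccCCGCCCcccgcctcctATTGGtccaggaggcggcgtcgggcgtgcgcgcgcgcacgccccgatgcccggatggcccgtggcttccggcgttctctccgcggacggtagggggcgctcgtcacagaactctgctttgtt
Ccng1, chr11:40755237-40755536, minus strand: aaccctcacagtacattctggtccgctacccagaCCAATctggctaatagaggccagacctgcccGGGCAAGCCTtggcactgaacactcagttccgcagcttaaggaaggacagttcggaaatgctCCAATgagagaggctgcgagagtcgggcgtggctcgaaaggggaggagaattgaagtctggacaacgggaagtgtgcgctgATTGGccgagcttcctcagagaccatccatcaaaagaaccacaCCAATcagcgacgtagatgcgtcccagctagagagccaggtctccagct
Cdkn1a, chr17:29090729-29091028, plus strand: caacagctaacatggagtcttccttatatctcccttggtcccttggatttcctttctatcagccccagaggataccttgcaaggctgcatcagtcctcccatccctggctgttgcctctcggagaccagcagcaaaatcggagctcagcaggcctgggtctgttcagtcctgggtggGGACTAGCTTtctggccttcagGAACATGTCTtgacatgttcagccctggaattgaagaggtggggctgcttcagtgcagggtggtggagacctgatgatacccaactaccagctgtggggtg
Cdkn1a, chr17:29093519-29093818, plus strand: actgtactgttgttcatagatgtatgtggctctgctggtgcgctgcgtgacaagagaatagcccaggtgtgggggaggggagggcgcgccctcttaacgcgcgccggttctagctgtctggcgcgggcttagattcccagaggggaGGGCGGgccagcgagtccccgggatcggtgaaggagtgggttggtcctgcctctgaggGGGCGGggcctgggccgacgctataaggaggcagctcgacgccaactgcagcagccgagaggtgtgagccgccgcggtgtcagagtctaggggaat
Col8a1, chr16:57754688-57754987, minus strand: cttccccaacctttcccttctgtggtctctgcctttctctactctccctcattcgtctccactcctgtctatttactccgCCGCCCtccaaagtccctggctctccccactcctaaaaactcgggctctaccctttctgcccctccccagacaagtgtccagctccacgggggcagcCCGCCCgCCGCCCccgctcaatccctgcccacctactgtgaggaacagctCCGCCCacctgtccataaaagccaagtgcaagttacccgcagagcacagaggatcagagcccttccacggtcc
Counted from the transcript start, the p53 half-site began at -186 in Mdm2, at -185 in Ccng1 and at -73 and -51 at the upstream start of Cdkn1a. CCAAT was at -216, -123, -42 and 2 in Ccng1 and at -72 in Mdm2. The GC box occurred at -104 and -88 in Mdm2, at -104 and -46 at the downstream start of Cdkn1a, and at -170, -73, -66 and -23 in Col8a1.

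A promoter was in the RefSeq table for 37 of the 44 genes, with 51 windows in all. The GC box was in 72.5% of these windows, against 60.8% of the 4376 windows of genes tested on the arrays and 35.7% of all 32851 windows of the same length. CACGTG, the E-box, was in 19.6% against 10.6% and 7.15%, and CCAAT in 17.6% against 36.9% and 37.4%. The p53 half-site was in 9.8% (Mdm2, Ccng1, Cdkn1a, Exosc10 and Rap2b), or 5 of 51 windows, against 6.63% and 8.36%. TATAAA was in 5.88% (8.98% of the windows of tested genes), TGACTCA in 3.92% (4.23%), TGACGTCA in 1.96% (2.9%) and GAANNTTC in 1.96% (5.53%). The E2F motif TTTCGCGC was in none of the 51 (0.8% of the windows of tested genes). For the CArG box only a fixed string was searched, and no window of the members or of the tested genes held it. Other forms of this box were not searched, so its absence from these windows is not shown. Windows of the members were rich in G and C, with a median of 64.7% against 60.7% for tested genes and 52.7% for all, and the shares above move with that composition; this was not tested. A match is a string of letters only.

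**Figure D1:**
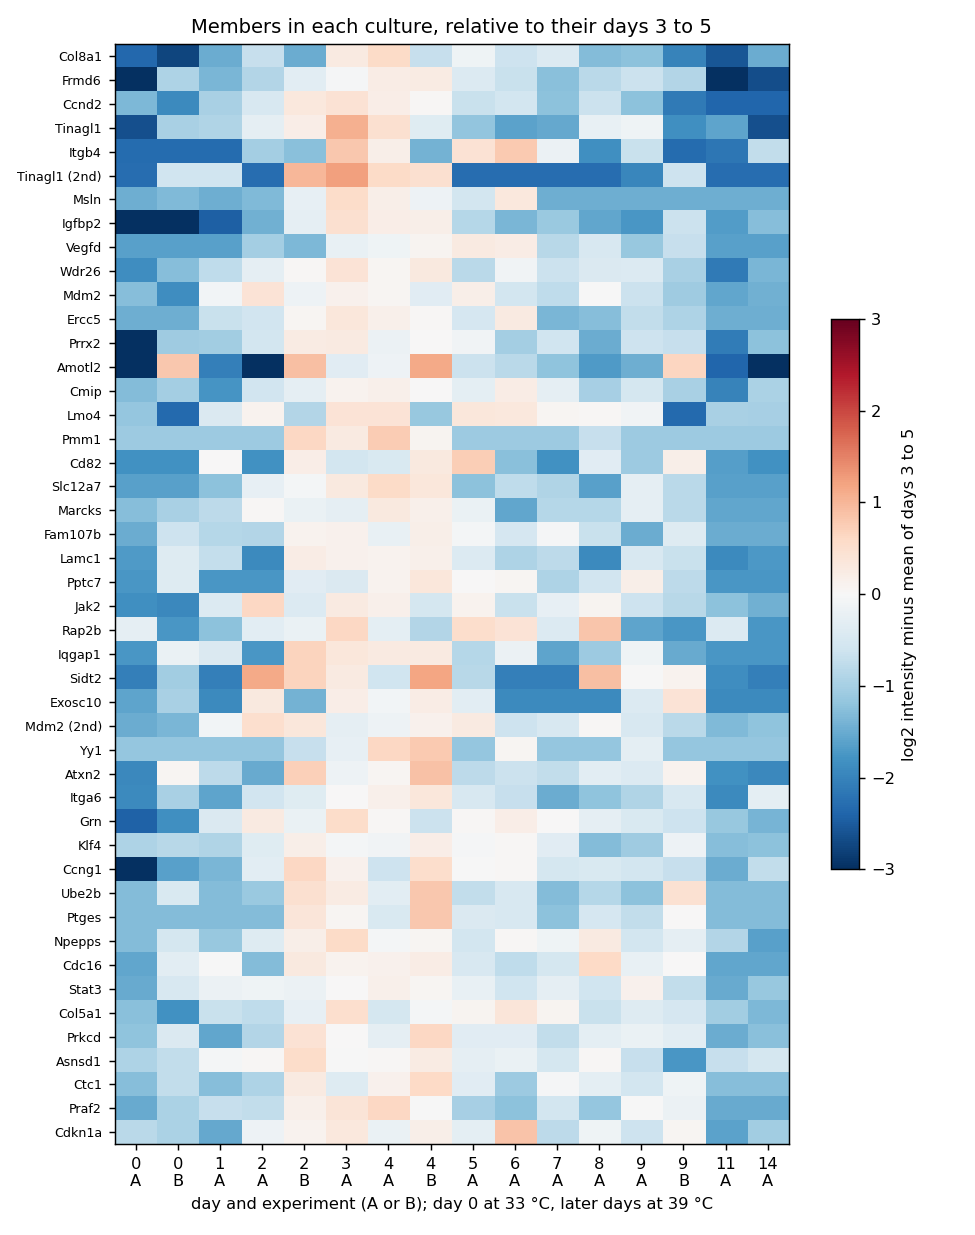
Heat map of the 46 members (rows, ordered by the smaller of rise and fall) in the 16 cultures (columns, by day and experiment), as log2 intensity minus the probe set's own mean at days 3 to 5; colours end at 3 either way. Red lies mainly in the columns of days 3 and 4 of experiment A and days 2 and 4 of experiment B. The darkest blue lies at day 0 and at days 11 and 14 of experiment A.

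Among the genes of the p53 circuit, Mdm2 was measured by 2 member probe sets. The brighter one read 1616 on day 0 of experiment A, 3666 on day 1, 5210 on day 2, 4308, 4052 and 4384 on days 3 to 5, 2669, 2297 and 3844 on days 6 to 8, 2483 on day 9, 1329 on day 11 and 1436 on day 14. On days 0, 2, 4 and 9 of experiment B it read 1071, 3513, 3070 and 1861. Mdm2 was thus above its day 0 level by day 1, highest on day 2 in both experiments, and back near the day 0 level by day 11. On the log2 scale its means were 10.36 ± 0.42 (SD, n = 2) on day 0, 11.93 ± 0.24 (SD, n = 4) at days 3 to 5 and 10.75 ± 0.41 (SD, n = 4) at days 9 to 14, a rise of 2.98-fold and a fall of 2.27-fold. The other member probe set rose 2.69-fold and fell 1.93-fold. A probe set of design b that is no member gave log2 differences of 0.65 and 0.66.

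Ccng1 (cyclin G1) read 307 on day 0 of experiment A, 968 and 2012 on days 1 and 2, 2737, 1619 and 2467 on days 3 to 5, 2576, 1742 and 1824 on days 6 to 8, and 1694, 883 and 1494 on days 9, 11 and 14. The B cultures read 807, 3868, 3625 and 1552 on the same 4 days. Its days 3 to 5 arrays all lay above both day 0 arrays, and the late arrays came down only part of the way, with a rise of 5.04-fold and a fall of 1.84-fold.

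Cdkn1a (p21) lay just inside the threshold. It read 372 on day 0 of experiment A, 225 and 587 on days 1 and 2, 808, 571 and 530 on days 3 to 5, 1187, 381 and 595 on days 6 to 8, and 425, 216 and 315 on days 9, 11 and 14. Experiment B gave 340, 699, 741 and 679. Its highest array was day 6, which the rule did not use, and in experiment B day 9 stayed near day 4. This probe set is shared by a gene family, so the transcript it reports is uncertain, and so is the second Cdkn1a probe set, whose log2 differences were 1.03 and 0.33. Ccnd2 encodes cyclin D2, which activates the kinases that start the cell cycle and which Cdkn1a can bind. Its intensity was 288, 376 and 521 on days 0 to 2 of experiment A, 993, 835 and 464 on days 3 to 5, 498, 311 and 472 on days 6 to 8, 315 on day 9, and below the floor on days 11 and 14. The B values were 195, 918, 757 and 170. Its fall of 4.07-fold was the largest of the 46, and since 2 of its late arrays were at the floor this is a low estimate.

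The wider list of inhibitors of cyclin-dependent kinases and p53 targets had 35 probe sets tested, and 4 of them, those of Mdm2, Ccng1 and Cdkn1a, were members (11.4%, against 0.93% of the 4947 tested probe sets with 1 symbol; the rule chose on these values and nothing is read from the share). Of the 35, 18 met the rise of 0.8 and 4 the fall, with a median rise of 0.88 and a median fall of 0.25 on the log2 scale; over all 7728 probe sets tested the medians were 0.02 and -0.06. Probe sets of the list with a rise and no fall included Gadd45a, a DNA damage response gene, with a rise of 2.03 and a fall of -0.47, and Gas1, a growth arrest gene, with 3.64 and -0.93, a negative fall meaning that days 9 to 14 were higher still.

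Among secreted and matrix proteins, Igfbp2, which binds insulin-like growth factors, rose the most. It was below the floor on day 0 in both experiments. In experiment A it then read 387 and 769 on days 1 and 2, 2907, 2436 and 1172 on days 3 to 5, 808, 966 and 717 on days 6 to 8, and 632, 658 and 872 on days 9, 11 and 14. In experiment B it read 1741, 2377 and 1352 on days 2, 4 and 9. The rise was at least 14.9-fold, since both day 0 arrays were at the floor, and the fall 2.52-fold to a late level that stayed well above day 0. Vegfd, a growth factor for lymphatic and blood vessels, was also at the floor on both day 0 arrays and on day 1. It read 303 on day 2, 518, 558 and 731 on days 3 to 5, 712, 343 and 436 on days 6 to 8 and 279 on day 9 of experiment A, was below the floor on days 11 and 14, and read 240, 646 and 375 on days 2, 4 and 9 of experiment B. Its days 3 to 5 arrays all lay above its late arrays. In culture RNA, fewer cells that express a gene and less RNA per cell cannot be told apart.

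Col8a1, a short-chain collagen of the subendothelial and corneal matrix, read 445, 822 and 1422 on days 0 to 2 of experiment A, 2770, 3407 and 2079 on days 3 to 5, 1474, 1735 and 933 on days 6 to 8, and 982, 386 and 817 on days 9, 11 and 14. The B cultures read 338, 808, 1407 and 573. All 4 arrays of days 3 to 5 exceeded every day 0 and every late array, and the log2 means were 8.6 ± 0.28 (SD, n = 2), 11.16 ± 0.55 (SD, n = 4) and 9.34 ± 0.59 (SD, n = 4). Lamc1, the laminin gamma 1 chain, was dimmer: 165, 327 and below the floor on days 0 to 2 of experiment A, 590, 575 and 403 on days 3 to 5, 281, 308 and below the floor on days 6 to 8, then 380, below the floor and 161 on days 9, 11 and 14. Experiment B gave 406, 620, 598 and 336, so its day 0 value there was above all late arrays. Col5a1, a chain of the fibril collagen type V, rose 2.91-fold and fell 1.77-fold in its member probe set. The 2 other Col5a1 probe sets gave log2 rises of -0.28 and 0.93 and falls of -0.16 and 0.36, so the probe sets of this gene disagree. Tinagl1, a matricellular protein of basement membranes, had 2 member probe sets, which rose 3.5-fold and 2.72-fold and fell 2.91-fold and 3.45-fold, and another that is no member, with log2 differences of 0.79 and 0.29.

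Across the extracellular matrix list, 3 of 60 tested probe sets were members (Col8a1, Col5a1 and Lamc1), 22 met the rise and 5 the fall. Of all tested probe sets with 1 symbol, 0.93% were members, and nothing is read from the share of members in any list. The counts meeting the rise or the fall, here and in the p53 target list, have no share over all probe sets beside them. Nothing is read from those counts either. The median rise was 0.53 and the median fall -0.01, so that at the median the list did not come down. Dcn (decorin) reached a geometric mean of 5790 at days 3 to 5 and 13500 at days 9 to 14, and Col6a1 2710 and 4340. In the growth factor list, 2 of 37 probe sets were members (Igfbp2 and Vegfd), with a median rise of 0.17 and a median fall of -0.19. Grn, the progranulin precursor, read 479, 1902 and 3060 on days 0 to 2 of experiment A, 3724, 2632 and 2633 on days 3 to 5, 2928, 2596 and 2141 on days 6 to 8, 1863, 1170 and 978 on days 9, 11 and 14, and 712, 2213, 1643 and 1673 in experiment B. In A its late arrays all lay below those of days 3 to 5, while in B day 9 was no lower than day 4. Its 3 probe sets are all shared by a family; the other 2 had log2 rises of 0.79 and 1.63 and falls of 0.23 and 0.66. Msln, the cell surface protein mesothelin, exceeded the floor on 8 of 16 arrays, among them all 4 of days 3 to 5, and on none of the late ones.

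Both chains of the hemidesmosome integrin were members. Itgb4 was below the floor on days 0 and 1 of experiment A, then read 347 on day 2, 1235, 795 and 952 on days 3 to 5, 1216, 627 and 196 on days 6 to 8 and 442, 156 and 421 on days 9, 11 and 14. In experiment B it was below the floor on days 0 and 9 and read 295 and 263 on days 2 and 4, so its B day 4 level was below 2 of the late arrays of A. Itga6 was below the floor on day 0 of A, read 251 and 505 on days 1 and 2, 749, 839 and 533 on days 3 to 5, 460, 268 and 325 on days 6 to 8, 398 on day 9, below the floor on day 11 and 610 on day 14, and 382, 585, 943 and 539 in experiment B. The rises were at least 4.99-fold for Itgb4, whose day 0 arrays were both at the floor, and 2.73-fold for Itga6, and the falls 2.78-fold and 1.87-fold. Cd82, a tetraspanin that associates with integrins, was at the floor on both day 0 arrays; its day 9 array in B (556) lay close to its day 4 array (605). These 3 were the members among 53 tested probe sets for integrins, cadherins and adhesion, whose median rise was 0.05 and median fall -0.05.

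**Figure D2:**
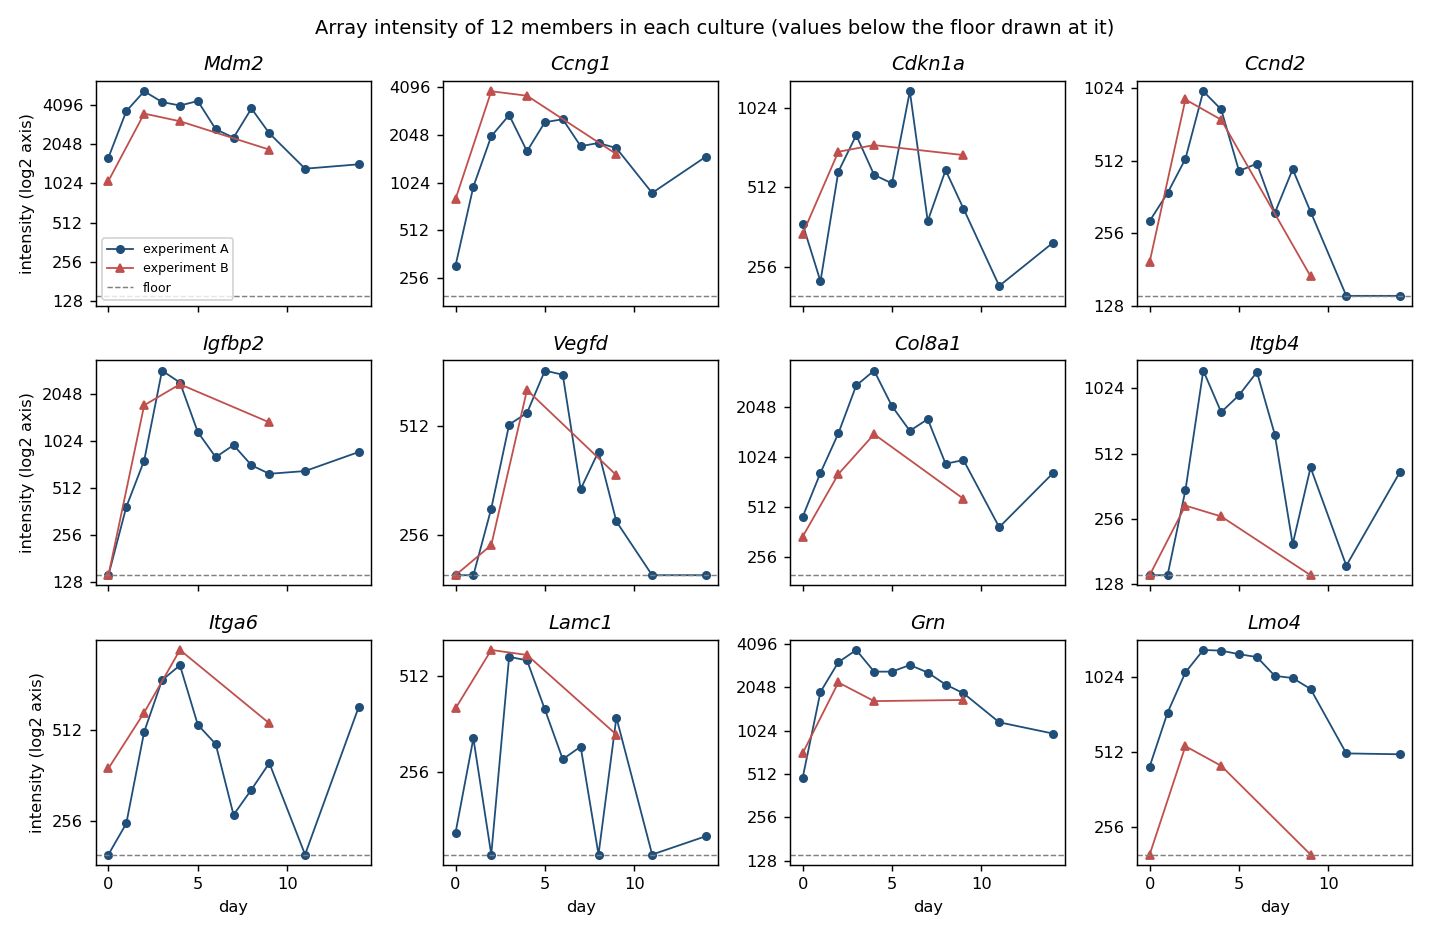
Array intensity (log2 axis) against day for 12 members, circles for experiment A and triangles for experiment B, with values below the floor (dashed line) drawn at it; for Mdm2 the brighter member probe set is drawn. The curves climb from day 0 to days 2 to 5 and are lower by day 11; Lmo4 and Itgb4 are far dimmer in experiment B, and Cdkn1a peaks on day 6.

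Among signalling proteins, Jak2, a cytokine receptor kinase, read 203, 549 and 1129 on days 0 to 2 of experiment A, 882, 813 and 791 on days 3 to 5, 465, 620 and 775 on days 6 to 8 and 477, 314 and 271 later, and 193, 550, 510 and 414 in experiment B. Stat3, the transcription factor that such kinases phosphorylate, rose 2.01-fold and fell 1.77-fold in its member probe set, which was dim (geometric mean 406 at days 3 to 5). A brighter Stat3 probe set (2090 at days 3 to 5) had log2 differences of 0.59 and -0.14 and stayed up at 2310 in days 9 to 14, so the fall of Stat3 rests on 1 of its 2 probe sets. Prkcd, a protein kinase C, rose 1.77-fold and fell 1.76-fold, and its second probe set gave log2 differences of 1.06 and 0.27. Rap2b, a small GTPase of the Ras family, rose 2.01-fold and fell 2.59-fold, with its highest array on day 8. Prkcd and Rap2b were the members among 99 tested probe sets for kinases, phosphatases and small GTPases (median rise 0.11, median fall -0.08). Marcks, a substrate of protein kinase C, rose 2.17-fold and fell 2.09-fold, but its 2 brighter probe sets, shared by a family, gave log2 rises of 0.55 and 0.69 and falls of 0.25 and 0.54. Ptges, which makes prostaglandin E, rose at least 2.48-fold from the floor and fell 1.78-fold.

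Members that regulate transcription differed in when and where they were high. Prrx2, a homeobox factor of mesenchyme, was below the floor on day 0 of experiment A and 843 in B, and read 2153, 1569 and 1651 on days 3 to 5 of A and 1776 on day 4 of B. Lmo4, a LIM-only protein, read 1321, 1313 and 1270 on days 3 to 5 of A, with 1237, 1039 and 1018 on days 6 to 8, but 451 on day 4 of B. Its level in B was thus about that of day 0 in A (448), while within B it still exceeded day 0 and day 9, both below the floor. Klf4, a zinc finger factor of epithelia, rose 1.85-fold and fell 1.92-fold with its highest arrays on day 4 of B and, within A, on day 6, and Yy1, a zinc finger factor, exceeded the floor on 6 arrays only; its other probe set had log2 differences of 0.49 and 0.06.

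Frmd6 and Amotl2, upstream regulators of the Hippo pathway, rose 3.96-fold and 2.19-fold and fell 3.52-fold and 2.96-fold. Amotl2 depended on the experiment: it read 946, 1076 and 764 on days 3 to 5 of A, between below the floor and 435 on the day 0 and late arrays of A, and 2113, 2240, 2646 and 1880 on the 4 days of B, where all levels were higher and the rise was 0.32 on the log2 scale. Of the remaining members, Ercc5 (an endonuclease of nucleotide excision repair), Wdr26, Cmip, Pmm1 (a phosphomannomutase), Slc12a7 (a potassium-chloride cotransporter), Fam107b, Pptc7, Iqgap1 (a scaffold for actin), Sidt2, Exosc10 (an exosome nuclease), Atxn2, Ube2b (a ubiquitin-conjugating enzyme), Npepps (an aminopeptidase), Cdc16 (a subunit of the anaphase-promoting complex), Asnsd1, Ctc1 (a telomere capping protein) and Praf2 had rises between 1.76-fold and 3.11-fold and falls between 1.75-fold and 2.42-fold; the rises of Ercc5, Pmm1 and Slc12a7 are lower bounds, both day 0 arrays being at the floor. Pmm1 exceeded the floor on 5 arrays, and Iqgap1 has 4 other probe sets with log2 rises of -0.1 to 0.52.

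Over all 46 members the rise spanned 0.82 to 3.9 on the log2 scale (median 1.36) and the fall 0.8 to 2.02 (median 1.08); 33 rose further than they fell and 11 fell further than they rose. The geometric mean intensity at days 3 to 5 ran from 303 to 3920, with a median of 563 against 294 for all tested probe sets. Of the members, 9 were at the floor on both day 0 arrays, 2 on all 4 late arrays, and 11 exceeded it on all 16. The 3 just inside the threshold were Cdkn1a (smaller difference 0.802), Praf2 (0.804) and Ctc1 (0.808); just outside were Notch3 (0.782), Pdcd6ip (0.788) and Aldh7a1 (0.796), so no gap separates members from the rest. The mirror pattern, low at days 3 to 5 by the same differences, held for 14 probe sets with 1 symbol.

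The days the rule did not use fill in the course. The median member stood 1.54 below its own days 3 to 5 mean on day 0 of experiment A, 1.08 below on day 1 and 0.63 below on day 2, was 0.22 above on day 3, 0.1 above on day 4 and 0.34 below on day 5, and then 0.56, 0.77, 0.65 and 0.59 below on days 6 to 9. On days 11 and 14 it was 1.57 and 1.46 below. In experiment B it was 1.03 below on day 0, 0.1 above on day 2, 0.17 above on day 4 and 0.69 below on day 9. The climb took about 3 days in experiment A, and in B the day 2 culture was already near the top; the return had a shallow part to day 9 and a step between days 9 and 11. The highest array of experiment A fell on day 3 in 20 members, day 4 in 12 and day 5 in 2, and outside these days in 12 (day 2 in 5, days 6 and 8 in 3 each, day 9 in 1). Most of these arrays, those of days 3 to 5 among them, helped choose the members. The course and the peak days are thus a description with no test.

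**Figure D3:**
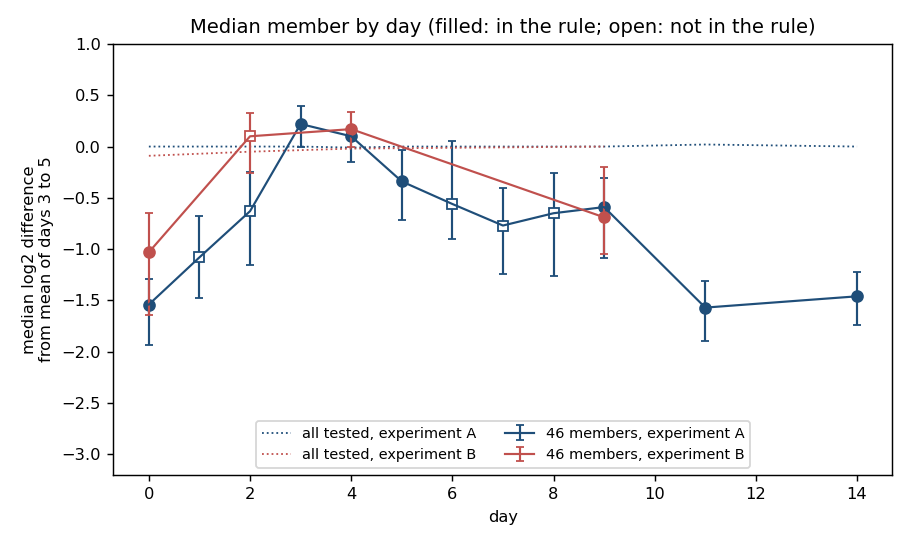
Median log2 difference of the 46 members from their own mean at days 3 to 5, by day, for experiments A and B; bars are quartiles over members, filled points are arrays the rule used, open squares arrays it did not, and dotted lines all tested probe sets. Experiment B is near its top on day 2, and experiment A drops between day 9 and day 11.

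On day 2 the experiments stood apart. The day 2 array exceeded the day 4 array in 20 of 46 members in B and in 8 in A, and the median difference between day 2 and day 4 was -0.08 in B and -0.74 in A. At matched days the median of B minus A over the members was 0.41 on day 0, 0.55 on day 2 (34 members higher in B), 0.13 on day 4 and -0.14 on day 9, against 0 for all tested probe sets. With 1 culture per day and experiment there is no test of this difference.

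The late step rested on 2 cultures of experiment A. From days 3 to 5 to day 9 the median fall was 0.64, and 16 of 46 members fell by 0.8 or more; to days 11 and 14 it was 1.48, and 45 did. Day 11 was below day 9 of A in 40 members, with a median difference of -0.92 against 0 for all tested probe sets. These late arrays helped choose the members, so the counts here are a description with no test. With day 9 of both experiments alone as the late level, the rule gave 27 probe sets, of which 16 were among the 46; experiment B has no culture after day 9.

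The noise of the arrays moved with part of this course. The noise level, the 75th percentile of the size of the negative intensities of an array, was on design a 188 on day 0, 204 on day 11 and 197 on day 14 of A, against 124, 104 and 159 on days 3 to 5 and 103 on day 9. On design b it was 187, 325 and 220 against 169, 153 and 248. In experiment B it was 91, 68, 75 and 160 on design a, lowest on the days when the members were high, and 75, 92, 109 and 160 on design b, where day 0 was lowest. Day 2 of A, which the rule did not use, had a noise level of 191 on design a with a mean log2 intensity of the members of 8.55. Day 0 of A, which helped choose the members, had 188 and 7.56. On design b, day 6 of A, which the rule did not use, had 278 and 9.68. The members above the floor on all 16 arrays, 11 in number, had medians on the arrays the rule did not use of 0.9 and 0.27 below their days 3 to 5 mean on days 1 and 2 of A, 0.1, 0.48 and 0.25 below on days 6 to 8, and 0.1 above on day 2 of B. The rule chose the members for a high days 3 to 5 mean, which favours values below it elsewhere. These medians are a description with no test. The part of noise in the rise and fall that chose the members was not tested. With the noise level as a covariate in the comparison of days 6 to 8 with days 1 to 2 described next, the median of the members was 0.12 and none passed in limma, where 152 of all tested probe sets did.

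**Figure D4:**
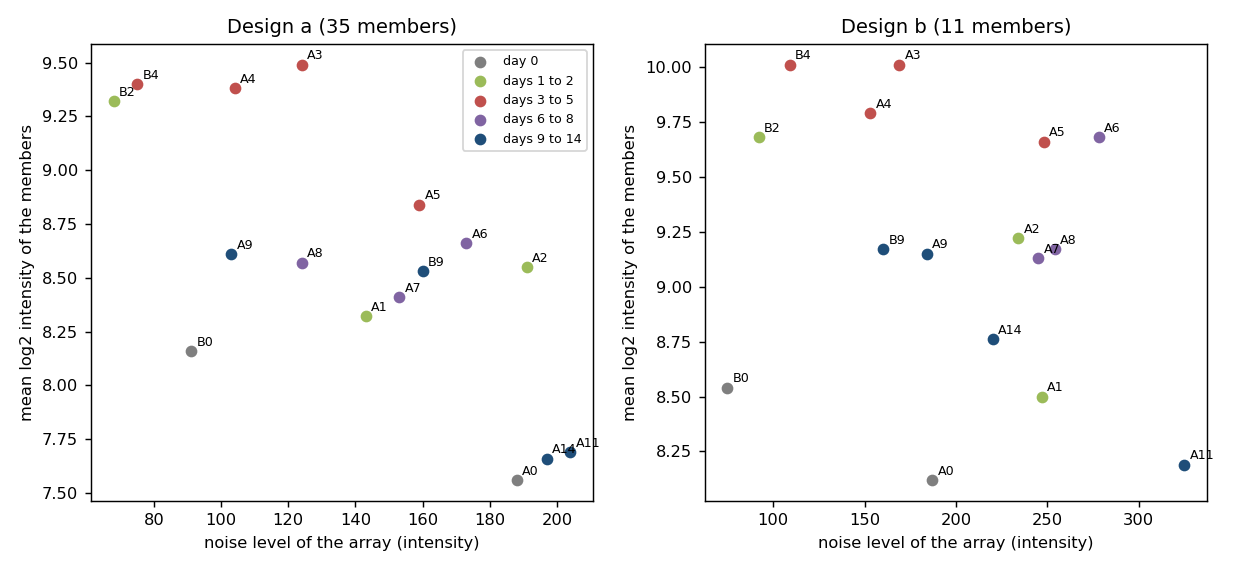
Mean log2 intensity of the members against the noise level (intensity units) of each of the 16 arrays, for design a and design b, coloured by group of days and labelled by experiment and day. On design a the noisiest arrays include days 0, 11 and 14 of A, where the members are lowest, while on day 0 of B both noise and members are low.

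To compare times on arrays the rule did not use, days 6 to 8 were set against days 1 to 2 with limma. The fit took all 16 arrays (n = 3 against 3) and had no term for experiment. Days 6 to 8 were all of experiment A, while days 1 to 2 included day 2 of B. Time and experiment are thus mixed in this comparison. Of all 7728 probe sets tested, 68 passed a Benjamini-Hochberg adjusted p of 0.05, or 0.88%, with 35 higher (0.453%) and 33 lower (0.427%) at days 6 to 8. No member passed in limma; 2 of 46 had an unadjusted p under 0.05 (4.35%), against 845 of 7728 (10.9%). The median difference of the members was -0.05 on the log2 scale and 0.04 over all tested, with 21 members higher and 25 lower. This balance turned with the choice of arrays and model: the median was -0.34 with 12 higher and 34 lower without day 1 of A, 0.18 with 29 higher and 17 lower in experiment A alone, and 0.1 with 26 higher and 20 lower with the experiment as a block. The rising and falling flanks of these genes were thus not told apart in this design, which does not show that they were equal: the median SE of a member was 0.46.

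Single members leaned either way, and none passed the adjusted threshold. Vegfd was 0.96 ± 0.36 (SE) higher at days 6 to 8 (limma, adjusted p = 0.281), and its 3 later arrays all exceeded the 3 earlier ones, as did those of 8.33% of tested probe sets. Itgb4 was 1.12 ± 0.67 (SE) higher (limma, adjusted p = 0.588) with overlapping arrays. The other way, the dimmer Mdm2 probe set was 0.61 ± 0.28 (SE) lower, a difference of -0.61 (limma, adjusted p = 0.419). The member probe sets of Stat3 and Marcks had all 3 later arrays below the earlier ones, with differences of -0.34 and -0.78, as 5.5% of tested probe sets had. Brighter probe sets of these genes did not share this, with 0.29 for Stat3 and 0.06 and -0.04 for Marcks. Tinagl1 gave the most negative value, -1.66 ± 0.83 (SE, limma, adjusted p = 0.488), in the probe set that was at the floor on days 6 to 8. Its other member probe set gave -0.79, and the Tinagl1 probe set that is no member gave 0.81. In the lists that held 2 or more members, the probe sets that passed were Gas1 in the p53 target list and Dcn, Col6a1, Col6a2 and Ogn in the matrix list, all higher at days 6 to 8 and none a member, while none passed in either direction in the growth factor, adhesion and kinase lists. With the experiment as a block, 176 probe sets passed in place of 68, and again no member.

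**Figure D5:**
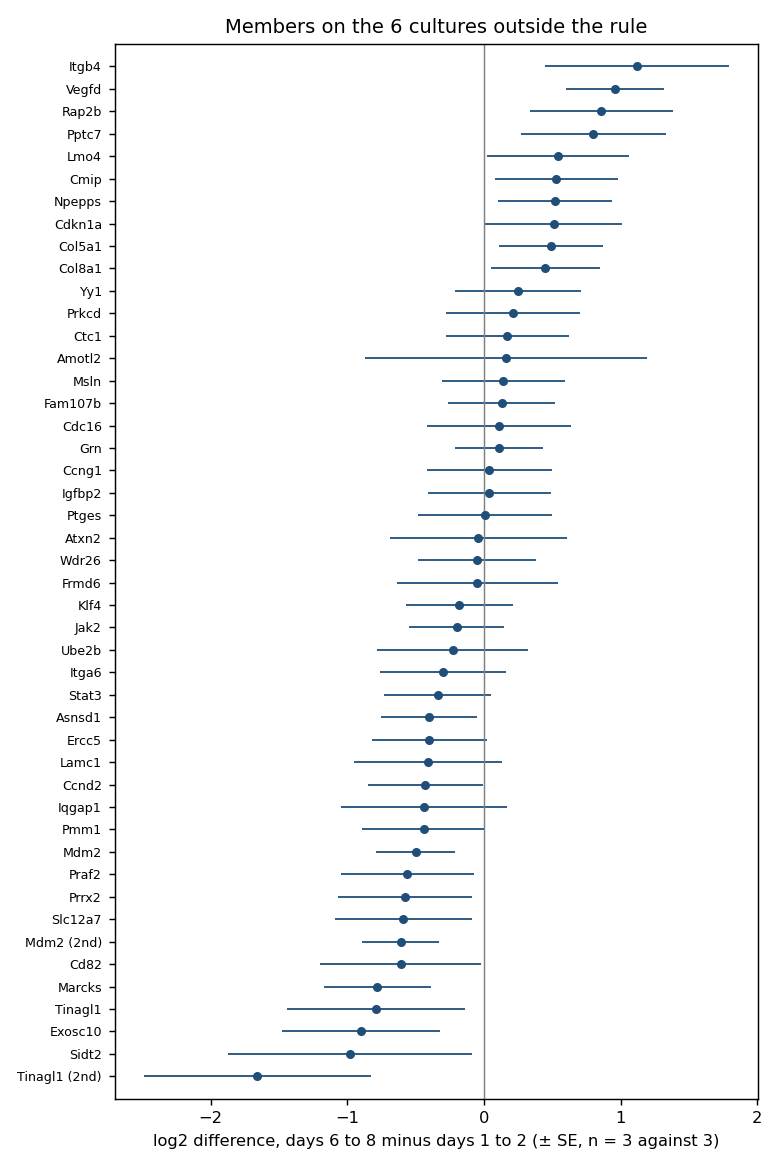
Log2 difference between days 6 to 8 and days 1 to 2 for each member (points, bars are ± SE from limma, n = 3 against 3). The estimates run from -1.66 for a Tinagl1 probe set to 1.12 for Itgb4, on both sides of 0, and none passed the threshold.

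A second comparison used 1 experiment to choose and the other to test. In experiment B alone, 86 probe sets had day 4 at least 0.8 above both day 0 and day 9; 84 were tested and 23 are among the 46 members. In experiment A, which had no part in that choice, days 3 to 5 (n = 3) against day 0 (n = 1) gave 11 of the 84 higher (13.1%) and none lower, against 2.63% of all tested probe sets higher and 3.36% lower. The lone day 0 culture is assumed to vary like the other groups. The median difference was 0.76 on the log2 scale and 0 over all tested, and 77 of 84 lay above 0 (91.7%, against 52.1% of all tested). Many of all tested probe sets lie at the floor, which limits their use as a contrast here and for the fall. Among the 11 were 5 members, Igfbp2, Ccng1, Col8a1, Frmd6 and Lmo4. Days 0 and 3 to 5 of A also helped choose the members, so the differences of these 5 in A, from 1.54 ± 0.37 (SE) for Lmo4 to 3.84 ± 0.51 (SE) for Igfbp2, are a description with no test; the single day 0 arrays of Igfbp2 and Frmd6 were at the floor. The others were Maged2, Notch3, Capn1, Rhoq and 2 probe sets of Ldhb. Without day 3 or without day 4 of A, 5 of the 84 passed.

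The fall was tested in the same way. Against days 9, 11 and 14 of A (n = 3), none of the 84 passed in limma, where 0.0259% of all tested probe sets were higher and 0.0647% lower; 21 of the 84 were higher and 1 lower at an unadjusted p under 0.05 (4.06% of all tested were higher at that p), the median difference was 0.24 against -0.04 for all tested, and 60 of 84 lay above 0 (71.4%, against 41.6% of all tested). Without day 9 of A, 3 passed, and without day 5, 2 passed. In the other direction, 74 probe sets met the rule in experiment A alone, and day 4 of B exceeded both day 0 and day 9 of B in 54 of them (73%), against 20.5% of all tested probe sets, many of which lie at the floor. Their median rise in B was 0.93 and their median fall 0.44. The members themselves, chosen with B included, had a rise of 0.8 or more within B in 37 of 46, a fall of that size in 28 and both in 23.

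Other probe sets of the same genes were not used by the rule, though they were read on the same arrays. They numbered 22 for 14 genes, and 19 were tested. Rise and fall were both above 0 in 16 of these 19, against 22.1% of all tested probe sets, many of which lie at the floor. The exceptions were 1 probe set each of Col5a1, Iqgap1 and Stat3. None reached 0.8 in both, and any size above 0 counted, as for Cdc16 with 0.09 and 0.09. Some, as for Jak2, Iqgap1 and Cdc16, are named for the same sequence as the member. The share is thus a description with no test.

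Markers were read to check the label of the line. Of hair cell markers, Myo6, Myo7a and Calb2 exceeded the floor on at least 8 arrays and Atoh1 on none; of otic and epithelial markers Pax2, Gata3, Bmp4 and Krt18 did, and Epcam, Cdh1 and Sox2 on none. Of mesenchymal markers, Col1a1, Pdgfrb, Vim and Dcn exceeded the floor on at least 8 arrays, Col3a1 on 5 by 1 of its 2 probe sets, and Lum, Col1a2 and Thy1 on none. Their sum ran from 6358 to 8032 on day 0, 9606 to 10842 at days 3 to 5, 16896 to 21884 at days 6 to 8 and 9647 to 25340 at days 9 to 14. It followed Dcn, with geometric means of 198, 5790, 16200 and 13500 in these groups, while Vim went from 6260 to 1850 between day 0 and days 9 to 14. Of macrophage and blood markers, Lyz2, Ptprc and Cd14 exceeded the floor on all 16 arrays, Cd68 on 14, and Csf1r and Adgre1 on none. Their sum was 1841 to 5622 on day 0, 3204 to 6639 at days 3 to 5 and 4003 to 13294 at days 9 to 14. Of muscle markers Myog exceeded the floor on 16 arrays, Myod1 on 14, Des on 9 and Acta1 on none. The muscle sums were 649 to 2404, 785 to 3044 and 764 to 2941 in the same groups. Of neural markers Tubb3 exceeded the floor on 16 arrays, Mbp on 14, Gfap on 14 by 1 of its 2 probe sets, S100b on 11 and Nefm on none. The neural sums were 2014 to 2898, 988 to 2144 and 1211 to 1491. Of endothelial markers Kdr exceeded the floor on 13 and Cdh5 and Pecam1 on none (218 to 403, 338 to 874 and 296 to 666). The part of other cell types in the members' course was not tested. Hair cell markers summed to 709 to 1218, 773 to 1383 and 1235 to 1890 on day 0, at days 3 to 5 and at days 9 to 14.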

How the data were processed

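Total RNA of 16 UB/OC-1 cultures was measured on 2 oligonucleotide array designs. The authors deposited an array intensity per probe set, already scaled to a common level: after leaving out the top and bottom 2%, array means ran from 300.4 to 300.8, so no further scaling was done. The authors' software and background method were not given in the labels or headers read here. Control probe sets were left out. Values under a floor, set per design at the 75th percentile of the size of its negative intensities, were raised to it before log2. Probe sets above the floor on at least 2 arrays were tested. On design a 44.2% to 50.8% of the values of an array exceeded the floor, on design b 30.8% to 40.4%. The number of arrays limits the precision.

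Each design was fitted in limma 3.58.1 (R 4.3.3; lmFit, eBayes with trend and robust) on 5 groups of days, two-sided, with Benjamini-Hochberg adjustment over both designs and a threshold of 0.05. The model was tested on simulated data, with differences set only in probe sets well above the floor and no effect of experiment. That simulation does not speak for members near the floor. Arrays at the floor have no scatter, which can make such p-values too small. Folds are differences of mean log2 intensity, and a fold against a group at the floor is a lower bound.

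Experiment pairs the samples: over 6 pairs of days, the A minus B differences of 2 days correlated with r between 0.33 and 0.70. The members, lists and tests were chosen with earlier results of these data known. Genes named are the 15 with the largest smaller difference, members of lists holding 2 or more, those next to the threshold and those with several probe sets; the rest are named to account for every member. Symbols came from the platform annotation. The p53 half-site search was added after the data were seen, as were the late level from day 9, the noise covariate and leaving out arrays in the rule. Alternatives were the floor, the filter, normalization, the difference of 0.8, the model's settings and leaving out arrays.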

Additional observations from a re-analysis of the deposited data

Results flagged for a closer look

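In groups of 4 arrays, a member was listed where its highest or lowest array stood apart from the other 3 by more than 0.829 of the group's range, Dixon's critical value for 4. This held for 10 of 92 groups checked; chance gives about 5%. All values are log2 intensities. At days 3 to 5, Lmo4 was low on day 4 of experiment B (8.82, next array 10.31), and 3 members were low on day 5 of experiment A: Slc12a7 (7.55), Lamc1 (8.65) and Iqgap1 (8.03). At days 9 to 14, Fam107b (8.24) and Ube2b (9.39) stood high on day 9 of B, Iqgap1 (8.76) and Yy1 (8.01) on day 9 of A and Rap2b (8.46) on day 11 of A. For these 5, 2 or 3 of the other arrays were at the floor, which narrows the range. Asnsd1 was at the floor (7.14) on day 9 of B while its other late arrays were at or above 8.19.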

How the results depend on the processing

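The number of members depended on every choice that moves the threshold. In place of 46, the rule gave 89 with the floor at 0.5 times, 25 at 1.5 times, 98 with a difference of 0.6, 25 with 1.0, 74 in experiment A alone, 27 with day 9 as the late level and 48 after quantile normalization. Leaving out 1 array gave 33 (day 0 of A) to 80 (day 9 of B), with 70 without day 9 of A. Between days 6 to 8 and days 1 to 2, the 68 probe sets passing became 24 with no filter, 130 in experiment A alone, 176 with experiment as a block, 105 with plain eBayes, 152 with the noise level as a covariate, and 16 (without day 1 of A) to 75 (without day 2 of B) with 1 array left out; 27 passed without day 6 and 25 without day 8. With the 6 unused arrays alone none passed (limma; 678 at an unadjusted p under 0.05). No member passed under any of the 17 alternatives; the lowest adjusted p was 0.131 (limma). Of probe sets chosen in B, the number higher at days 3 to 5 than on day 0 of A moved from 11 to 17 with the floor at 0.5 times, 7 at 1.5 times and 5 to 9 with 1 array left out. Against days 9 to 14 it was 2 with a filter on 8 arrays and 0 to 3 with 1 array left out. The only day 0 culture of A could not be left out there. Dim members near the floor limit all of these counts.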
